A study of Homo sapiens with 8 samples.

Results

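The heat shock proteins and their co-chaperones were followed in MDA-MB-231, a human triple-negative breast cancer cell line, grown on a soft or on a stiff substrate over 2 days. Genes were taken by symbol: HSP90A and HSP90B genes, the numbered HSPA, HSPB, HSPD, HSPE and HSPH genes, the numbered DNAJA, DNAJB and DNAJC genes, and BAG1 to BAG6. The rule gave 78 of the 19775 genes on the array that had a probe set naming them alone. Of these, 73 are protein-coding and 5 are noncoding RNA genes that carry the symbol of a neighbour (DNAJC3-DT, DNAJC27-AS1, DNAJC9-AS1, HSPA2-AS1 and DNAJB8-AS1). HSPA8, HSPA1A and HSPA1B were read only by probe sets that name several genes, so they have no value here. Where a gene had several probe sets, the one brightest on average across the arrays stands for it.

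Each substrate was represented by 4 arrays, 1 for each biological replicate A to D, all in the same serum-containing medium, with no transgene or drug named. The study's title places the comparison in the control of mutant p53 stability by mechanical cues. How stiff the substrates were is not stated in the labels. All levels are log2 RMA values, in which 1 unit is a doubling. All differences are soft minus stiff on that scale, with the moderated standard error (SE) of limma and its Benjamini-Hochberg adjusted p over 54613 probe sets. A gene is called higher or lower where that adjusted p is under 0.05.

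Arrays correlated pairwise at 0.993 to 0.998 over all probe sets. The substrates parted along principal component 1 (40.4% of the variance), and stiff A and B parted from stiff C and D along component 2 (16.4%). The levels fitted the line's label in most basal markers: 6 of 7 basal and mesenchymal markers lay above the background level of 6.80 (VIM at 14.6 on soft and 14.6 on stiff), with SPARC under it at 4.83 on both. The luminal and epithelial markers fitted it only in part. Of these 9 markers 5 lay above background, KRT18, KRT8, EPCAM, GATA3 and ERBB2, while ESR1, PGR, CDH1 and FOXA1 lay under it. GATA3 was at a mean of 8.235 on soft and 8.315 on stiff, and ERBB2 at 8.01 and 7.96. The leukocyte marker PTPRC lay under it, and of the endothelial markers VWF lay under it and PECAM1 above it (8.01 on soft and 7.52 on stiff, adjusted p = 0.00211), whose part in the results was not tested. RNA was read from whole cultures, so less of it in every cell and fewer cells with a high level cannot be told apart.

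Molecular chaperones bind unfolded or unstable proteins and let them fold, assemble or be handed on for degradation. HSP70 proteins work in an ATP-driven cycle in which J proteins (the DNAJ genes) deliver the client and start hydrolysis, and exchange factors such as the BAG proteins and the HSP110 proteins release it. HSP90 acts later on signalling proteins and transcription factors, the chaperonin HSP60 with its lid HSP10 encloses proteins in the mitochondrial matrix, and small HSPs hold unfolded proteins without ATP. HSF1 raises many of these genes on heat or proteotoxic stress, and HSP90 together with DNAJA1 is known for protecting mutant p53 from degradation.

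Cells on the soft substrate had 10 of the 78 genes lower and 1 higher, while 67 did not pass the test. Over all 19775 genes 10.3% passed it, 5.93% lower and 4.39% higher. The lower genes make up 12.8% of the members. Above background they are 18.9% of 53 members, against 10.4% of all genes there. Both mitochondrial chaperonin genes, HSPD1 and HSPE1, the mitochondrial HSP70 gene HSPA9 and the mitochondrial J protein gene DNAJA3 were among the lower ones, and the small heat shock protein gene HSPB1 was the 1 that was higher. The remaining lower genes were HSPA4L, HSPA14, DNAJC2, DNAJC6, DNAJC18 and BAG4. Their changes were small, from 1.18-fold for HSPD1 to 1.40-fold for DNAJC6.

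**Figure D1:**
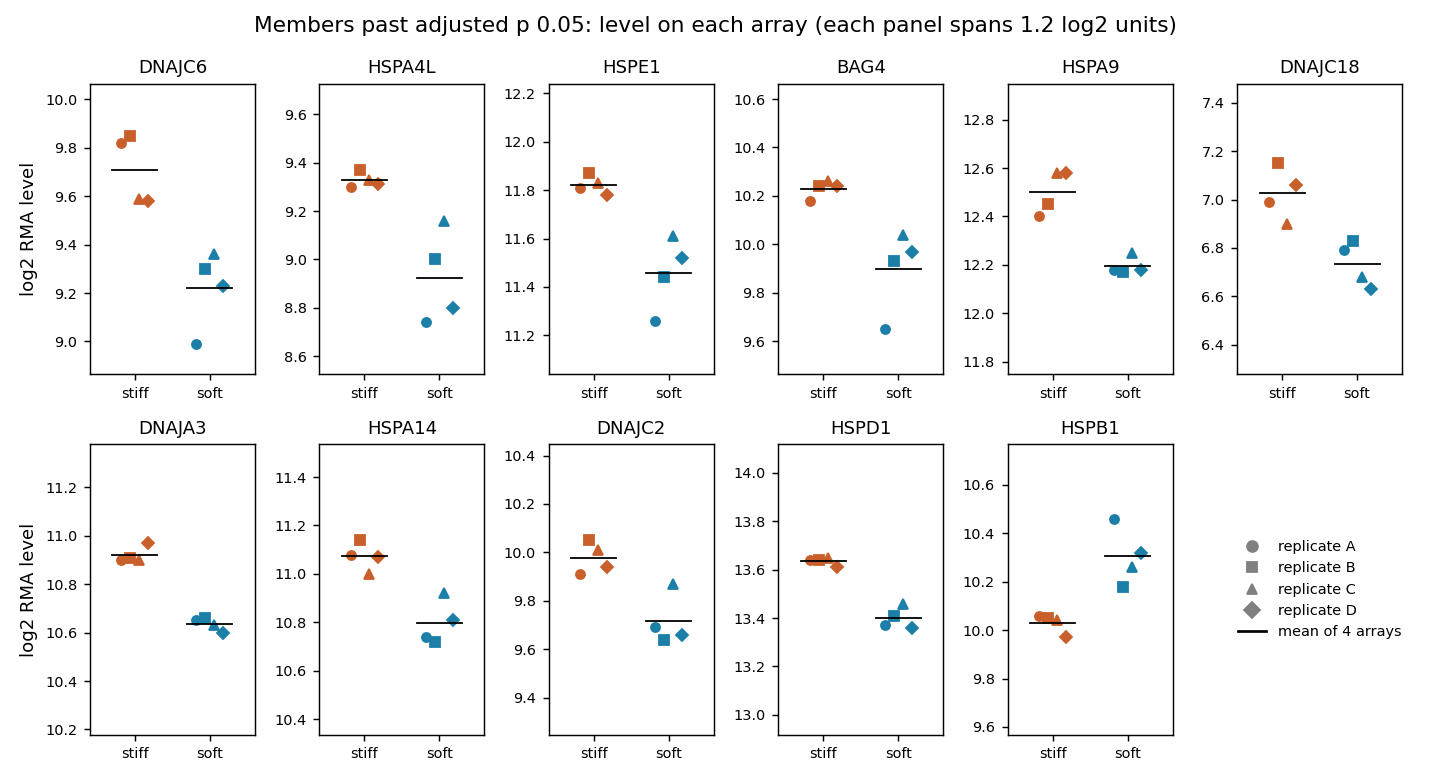
Level of the 11 called genes on each array (vertical axis, log2 RMA; every panel spans the same number of log2 units), stiff in orange and soft in blue, with a symbol for each replicate letter and a line at the mean of 4 arrays. The groups do not overlap in any panel; HSPB1 is higher on soft and the other 10 genes are lower.

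HSPD1 and HSPE1, which encode HSP60 and HSP10, lie head to head on chromosome 2, with their RefSeq start sites 105 bases apart on opposite strands. The windows from 250 bases before to 50 bases after each start share 204 bases. They are shown because both genes fell on soft and their windows hold this stretch in common, which spans both start sites. The shared bases are in capitals and read as reverse complements of each other, from RefSeq on GRCh38.p14, each given 5′ to 3′ on its gene's strand. HSPD1 is at chr2:197500225-197500524 on the minus strand and HSPE1 at chr2:197500129-197500428 on the plus strand.
HSPD1: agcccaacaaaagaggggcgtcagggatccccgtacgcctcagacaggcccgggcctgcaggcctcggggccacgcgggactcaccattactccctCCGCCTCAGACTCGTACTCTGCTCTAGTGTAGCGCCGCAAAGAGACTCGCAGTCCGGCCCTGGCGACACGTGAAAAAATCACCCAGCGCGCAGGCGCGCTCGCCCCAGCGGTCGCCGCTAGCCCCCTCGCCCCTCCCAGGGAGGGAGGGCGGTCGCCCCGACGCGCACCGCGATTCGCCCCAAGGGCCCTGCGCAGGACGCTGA
HSPE1: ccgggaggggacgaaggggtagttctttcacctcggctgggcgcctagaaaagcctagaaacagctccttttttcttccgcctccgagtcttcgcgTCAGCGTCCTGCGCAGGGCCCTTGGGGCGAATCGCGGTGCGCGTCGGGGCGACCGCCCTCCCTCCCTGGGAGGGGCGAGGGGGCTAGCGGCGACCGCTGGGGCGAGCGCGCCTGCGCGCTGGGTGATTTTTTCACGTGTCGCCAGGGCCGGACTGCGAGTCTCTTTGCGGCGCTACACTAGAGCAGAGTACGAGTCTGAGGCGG

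The HSPE1 level was 11.26, 11.44, 11.61 and 11.52 on soft A to D and 11.81, 11.87, 11.83 and 11.78 on stiff A to D. Every soft array lay under every stiff array, with soft A the lowest. The difference was -0.365 (SE 0.0775, adjusted p = 0.0148), a level 1.29-fold higher on stiff. The HSPD1 level was 13.37, 13.41, 13.46 and 13.36 on soft and 13.64, 13.64, 13.65 and 13.61 on stiff. These arrays were tighter than those of HSPE1 and again did not overlap, with a difference of -0.235 (SE 0.0561, adjusted p = 0.0249). A second bright HSPD1 probe set differed by -0.1925 without passing the test (adjusted p = 0.165), and of the HSPD1 probe sets under background 1 was lower by 0.635 (adjusted p = 0.00184) while the others differed by 0.005 (adjusted p = 0.987) and -0.0825 (adjusted p = 0.599). HSPE1 has a single such probe set. The HSPD1 call was lost without any 1 array other than soft C, with adjusted p from 0.0509 to 0.0684, while the HSPE1 call was kept without each array in turn. The probe sets used for HSPD1, HSPE1, HSPA9 and DNAJA3 carry the manufacturer's mark for probes that can match more than 1 transcript.

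HSPA9, also called mortalin, pulls proteins into the mitochondrial matrix and folds them there. Its level was 12.18, 12.17, 12.25 and 12.18 on soft and 12.40, 12.45, 12.58 and 12.58 on stiff. The soft arrays were alike except for soft C, and stiff C and D were the highest. The difference was -0.3075 (SE 0.0644, adjusted p = 0.0140). Another of its probe sets fell as well, by 0.3025 (adjusted p = 0.0438), and one differed by -0.22 (adjusted p = 0.101).

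DNAJA3, the J protein that stimulates HSPA9 in the matrix, had levels of 10.65, 10.66, 10.63 and 10.60 on soft and 10.90, 10.91, 10.90 and 10.97 on stiff. Within each substrate the arrays differed by at most a few hundredths of a unit, far less than the gap between the groups. The difference was -0.285 (SE 0.0554, adjusted p = 0.0101), and its other probe set fell by 0.2525 (adjusted p = 0.0259).

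The remaining members on the mitochondrial list did not pass the test. DNAJC19, a J protein of the import motor, differed by -0.1025 (adjusted p = 0.374), DNAJC11, which is bound to the cristae junction complex, by -0.02 (adjusted p = 0.898), and DNAJC15, a relative of DNAJC19, by 0.045 (adjusted p = 0.697). So 4 of 7 members on this list were lower and none was higher, with a median difference of -0.235. The median was 0.0075 over all genes and -0.0275 over those above background, of which 10.4% were lower. DNAJC30, DNAJC28 and DNAJC4, also placed in mitochondria, are not on the list, and DNAJC28 lay under background. They differed by -0.1175 (adjusted p = 0.315), 0.045 (adjusted p = 0.782) and 0.1375 (adjusted p = 0.28), and none was called. The mean of the 7 listed members, each set against its own mean over the arrays, was 0.0693 to 0.104 on the stiff arrays. On the soft arrays it was -0.118 to -0.055, so these ranges did not overlap. The count of lower members on the list stayed at 3 or 4 when any 1 array was left out. When a gene's probe sets were averaged 3 were lower, and DNAJC15 was higher by 0.174 (adjusted p = 0.0424). The count of lower members was 0 with stiff A and B as the only stiff arrays and 1 with stiff C and D. There 5.58% and 4.22% of all genes were called in either direction.

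The genes that serve these chaperones outside the symbol rule can be set beside them. TRAP1, the mitochondrial HSP90, had levels of 9.58, 9.60, 9.72 and 9.70 on soft and 10.01, 9.98, 10.03 and 9.93 on stiff, and was lower by 0.3375 (SE 0.0612, adjusted p = 0.00731). GRPEL1, the exchange factor of HSPA9, had levels of 10.63, 10.63, 10.82 and 10.69 on soft and 11.01, 11.10, 10.91 and 10.94 on stiff, and was lower by 0.2975 (SE 0.0697, adjusted p = 0.0232). Neither gene's groups overlapped. The GRPEL1 call was lost without soft A, B or D or without stiff A or B, with adjusted p up to 0.163 over the alternatives. The TRAP1 call was kept in 17 of 19 alternatives. CLPB, a mitochondrial disaggregase, differed by -0.1075 without passing the test (adjusted p = 0.405).

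Of the 10 members on the list for the endoplasmic reticulum 0 passed the test with limma, in either direction, and 0 had arrays that did not overlap. Of the 10181 genes above background, where all 10 lie, 1058 were lower and 782 higher, and 3433 had arrays that did not overlap. The list leaves out DNAJC18, a J protein of that membrane, which was lower. The median difference of the 10 listed members was 0.0375. An unadjusted p under 0.05 was reached by 1 of them, DNAJB9. When a gene's probe sets were averaged, DNAJB14 and DNAJC3 were called higher. HSPA5 (BiP), the HSP70 of this compartment, was at 13.20, 13.24, 13.27 and 13.20 on soft and 13.25, 13.22, 13.30 and 13.23 on stiff. The ranges overlap, and the 95% interval of the difference ran from -0.146 to 0.101. Whether the compartments differed was not tested.

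**Figure D2:**
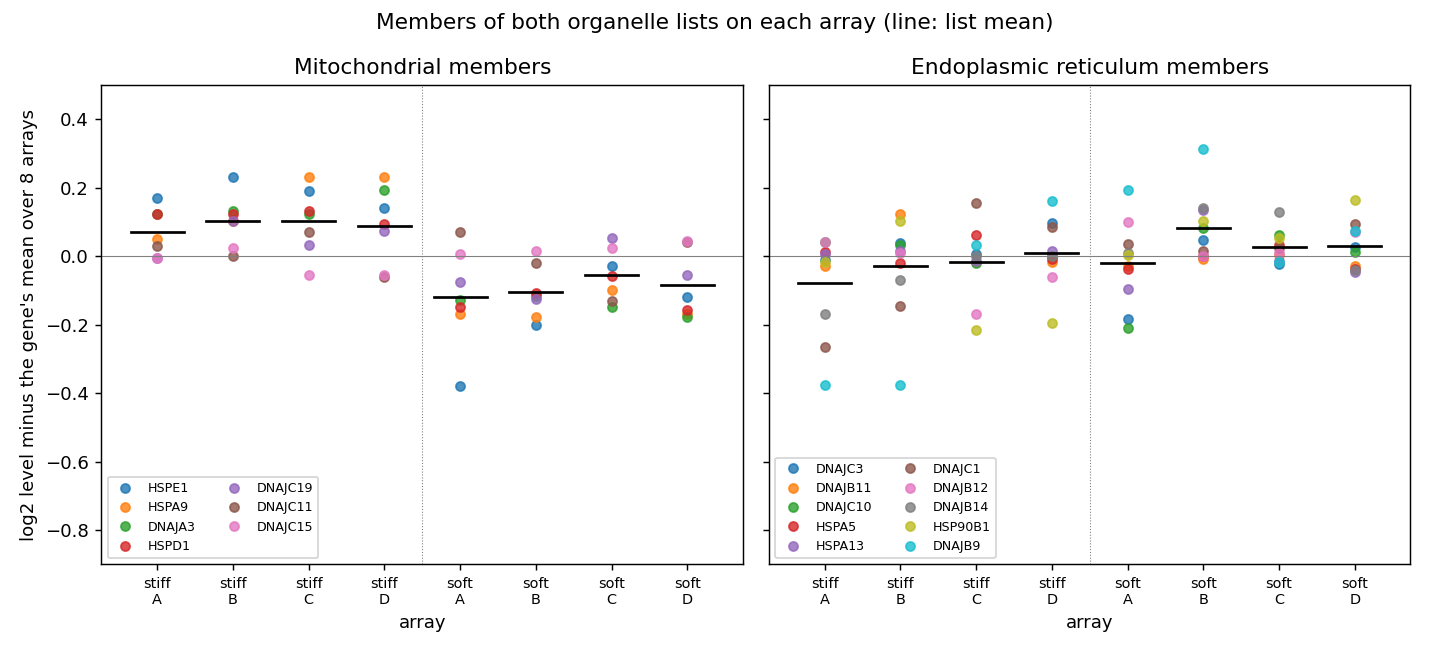
Levels on each array of the 7 members on the mitochondrial list and the 10 on the endoplasmic reticulum list. The vertical axis is log2 level minus the gene's mean over the 8 arrays, with a black line at the list mean of each array. The mitochondrial list means are 0.0693 or more on stiff and -0.055 or less on soft; those of the endoplasmic reticulum overlap, from -0.0771 to 0.00788 on stiff and -0.0211 to 0.0829 on soft.

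Some endoplasmic reticulum members depended on which stiff arrays they were set against. DNAJB9, a J protein induced by the unfolded protein response, was at 9.54, 9.66, 9.33 and 9.42 on soft and at 8.97, 8.97, 9.38 and 9.51 on stiff. Only stiff A and B were low. The difference was 0.28 over all arrays (adjusted p = 0.215), 0.5175 against stiff A and B, where it passed the test, and 0.0425 against stiff C and D. Dimmer DNAJB9 probe sets differed over all arrays by 0.185 (adjusted p = 0.503) and -0.0975 (adjusted p = 0.743). HSP90B1 (GRP94), the HSP90 of this compartment, was at 11.11, 11.21, 11.16 and 11.27 on soft and at 11.09, 11.21, 10.89 and 10.91 on stiff. Here stiff C and D were the low arrays, and the difference of 0.1625 did not pass the test (adjusted p = 0.265). A dimmer HSP90B1 probe set differed by -0.13 (adjusted p = 0.392).

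Among the HSP70 and HSP110 genes 3 of 12 were lower and none higher, with a median difference of -0.116. That is 25%, against 5.93% of all genes and 10.4% of genes above background. HSPA4L, an HSP110 protein that exchanges nucleotides on HSP70, was at 8.74, 9.0, 9.16 and 8.80 on soft and at 9.30, 9.37, 9.33 and 9.31 on stiff. The stiff arrays were close together and the soft arrays spread over a wider range beneath them. HSPA4L was lower by 0.4025 (SE 0.0890, adjusted p = 0.0177), and its other probe set differed by -0.215 (adjusted p = 0.0841). The call was lost without soft D (adjusted p = 0.0529) or stiff B (adjusted p = 0.0548).

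The related HSPA4 was at 11.61, 11.53, 11.68 and 11.59 on soft and at 11.71, 11.76, 11.73 and 11.70 on stiff. Its groups did not overlap but the difference of -0.1225 missed the threshold (adjusted p = 0.242), while a dimmer HSPA4 probe set fell by 0.4225 (adjusted p = 0.0125). HSPH1, the third HSP110 gene, differed by -0.11 with overlapping arrays (adjusted p = 0.300).

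HSPA14 and DNAJC2 encode the HSP70 and the J protein of the ribosome-associated complex, which meets new chains as they leave the ribosome. HSPA14 was at 10.74, 10.72, 10.92 and 10.81 on soft and at 11.08, 11.14, 11 and 11.07 on stiff, a decrease by 0.275 (SE 0.0661, adjusted p = 0.0255). Of its other probe sets 1 fell by 0.3625 (adjusted p = 0.00643) and 1 differed by -0.27 (adjusted p = 0.0532). DNAJC2 was at 9.69, 9.64, 9.87 and 9.66 on soft and at 9.91, 10.05, 10.01 and 9.94 on stiff, a decrease by 0.2625 (SE 0.0698, adjusted p = 0.0390). HSPA14 lost its call without any 1 array other than soft C or stiff C (adjusted p from 0.0572 to 0.0796). DNAJC2 lost it without any 1 array other than soft C (adjusted p from 0.056 to 0.112), and an unmarked DNAJC2 probe set under background differed by 0.0575.

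The cytosolic HSP90 pair did not pass the test at the chosen settings. HSP90AA1, the inducible form, was at 14.06, 14.13, 14.17 and 14.15 on soft and at 14.19, 14.18, 14.20 and 14.16 on stiff, with a 95% interval of the difference from -0.179 to 0.0688. Other HSP90AA1 probe sets differed by -0.09 (adjusted p = 0.39), -0.075 (adjusted p = 0.493) and, in the other direction, 0.16 (adjusted p = 0.207). HSP90AB1, the mainly constitutive form, which HSF1 can also raise, was at 13.23, 13.11, 13.15 and 13.18 on soft and at 13.40, 13.37, 13.27 and 13.27 on stiff. Its soft arrays all lay under the stiff ones, the difference was -0.16, and its adjusted p was 0.141. HSP90AB1 passed with probe sets under background removed (adjusted p = 0.0361) and with a trended robust variance model (adjusted p = 0.0175). At dimmer HSP90AB1 probe sets the difference was -0.05 (adjusted p = 0.791) or 0.1175 (adjusted p = 0.569).

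**Figure D3:**
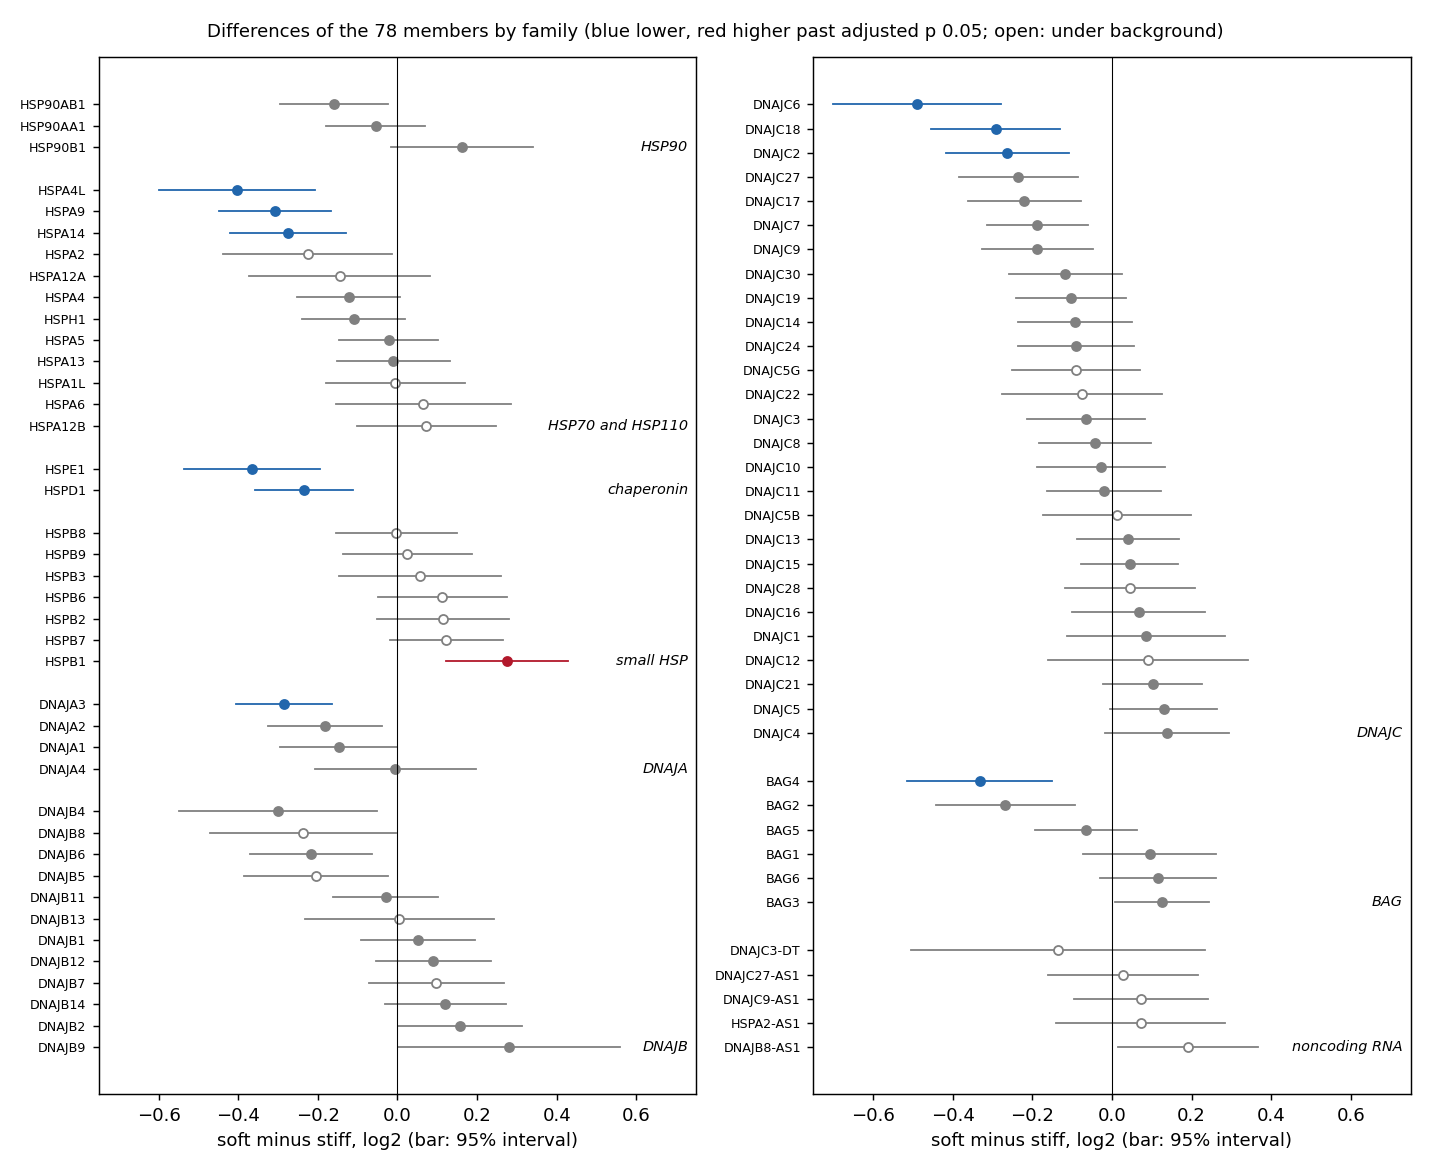
Soft minus stiff difference of each of the 78 members (horizontal axis, log2), grouped by family and ordered within it, with a bar for the 95% interval of the limma fit; blue genes were lower and red higher past the threshold, and open points lie under background in both groups. Blue points are in the HSP70, chaperonin, DNAJA, DNAJC and BAG families, and the single red point is HSPB1.

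The small heat shock proteins lay mostly under background, with HSPB1 alone of the 7 members above it. HSPB1 (HSP27), which holds unfolded proteins and binds actin, was at 10.46, 10.18, 10.26 and 10.32 on soft and at 10.06, 10.05, 10.04 and 9.97 on stiff. Every soft array lay above every stiff array, with soft A the highest. It rose by 0.275 (SE 0.0702, adjusted p = 0.0331), or 1.21-fold, and is read by 1 probe set, which carries the mark for shared probes. Its call was lost without soft A or D, or without any 1 of the stiff arrays (adjusted p from 0.0614 to 0.093).

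The J proteins, 43 protein-coding genes, had 4 lower and none higher. The 4 are 9.3%, near the 5.93% of all genes and the 10.4% of genes above background that were lower. DNAJC6, auxilin, which recruits HSP70 to strip clathrin from vesicles, was at 8.99, 9.30, 9.36 and 9.23 on soft and at 9.82, 9.85, 9.59 and 9.58 on stiff. Stiff A and B were higher than stiff C and D, and soft A was the lowest array. Its difference of -0.49 (SE 0.0959, adjusted p = 0.0104) was the largest in size among the chosen probe sets. It was -0.615 against stiff A and B and -0.365 against stiff C and D, and the latter missed the threshold (adjusted p = 0.0999).

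DNAJC18 was at 6.79, 6.83, 6.68 and 6.63 on soft and at 6.99, 7.15, 6.90 and 7.06 on stiff, close to background. It was lower by 0.2925 (SE 0.0742, adjusted p = 0.0322), a call lost without soft C or D or without stiff A, B or D (adjusted p from 0.0591 to 0.0958). The call was also lost when its probe sets were averaged (-0.124, adjusted p = 0.165). Other DNAJC18 probe sets lay under background and differed by -0.12 (adjusted p = 0.401) and 0.04 (adjusted p = 0.811). The 4 DNAJA genes all had negative differences, from -0.285 for DNAJA3 to -0.005 for DNAJA4. DNAJA1, the cofactor linked to mutant p53, was at 12.48, 12.58, 12.69 and 12.57 on soft and at 12.72, 12.83, 12.69 and 12.67 on stiff. Soft C reached the level of stiff C, and the difference was -0.1475 (adjusted p = 0.217), with -0.145 at its other probe set (adjusted p = 0.212). DNAJA2 differed by -0.1825 with arrays that did not overlap (adjusted p = 0.114).

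DNAJB1, the classical heat-induced partner of HSP70, was at 10.95, 10.92, 11.03 and 11.14 on soft and at 10.94, 10.93, 10.99 and 10.97 on stiff. The values overlap, and the 95% interval of the difference ran from -0.0904 to 0.195. Of the 12 DNAJB genes 0 passed the test with limma at their chosen probe set, while 10.3% of all genes passed it. An unadjusted p under 0.05 was reached by 6 of them, in both directions. DNAJB4, DNAJB5, DNAJB6 and DNAJB8 had negative differences, and DNAJB2 and DNAJB9 positive ones. DNAJB5 and DNAJB8 lay under background. The share of all genes with such a p was not counted. DNAJB4 differed by -0.30 with overlapping arrays (adjusted p = 0.131). DNAJB6, which suppresses protein aggregation, differed by -0.2175 without overlap (adjusted p = 0.0801) and passed the test with probe sets under background removed. DNAJB2, a J protein of neurons and muscle, differed by 0.1575 (adjusted p = 0.214).

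Of the BAG genes 1 of 6 was lower (16.7%, against 5.93% of all genes and 10.4% of genes above background). BAG4, which keeps death receptors silent, was at 9.65, 9.93, 10.04 and 9.97 on soft and at 10.18, 10.24, 10.26 and 10.24 on stiff. Soft A was the lowest array and the groups did not overlap. BAG4 was lower by 0.3325 (SE 0.0832, adjusted p = 0.0305). Its other probe sets lay under background and differed by -0.375 (adjusted p = 0.0348) and 0.145 (adjusted p = 0.472). The call at the chosen probe set was lost without soft B, soft D or any 1 stiff array (adjusted p from 0.0501 to 0.0773). BAG2, which restrains the ubiquitin ligase STUB1, was at 10.24, 10.46, 10.59 and 10.39 on soft and at 10.68, 10.78, 10.65 and 10.64 on stiff. Its difference of -0.2675 fell just short of the threshold (adjusted p = 0.0585). Other BAG2 probe sets differed by -0.0325 (adjusted p = 0.856) and, under background, -0.0175 (adjusted p = 0.935).

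BAG3, a heat-inducible factor that steers damaged cytoskeletal proteins to autophagy, had the tightest arrays of these genes, at 12.22, 12.25, 12.22 and 12.24 on soft and at 12.10, 12.10, 12.12 and 12.11 on stiff. Its soft arrays all lay above the stiff ones. The difference of 0.125 did not pass the test in the limma fit, which draws its SE partly from all other probe sets (SE 0.0535, adjusted p = 0.187). It passed with probe sets under background removed (adjusted p = 0.0361) and with a trended robust variance model (adjusted p = 0.0294).

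For 24 members soft and stiff arrays were fully separate, with 19 lower and 5 higher on soft. Over all genes 11.2% lay lower and 8.78% higher in this way. Above background 35.8% of the members lay lower, against 19.6% of all genes there. Besides those above, DNAJC27, DNAJC17, DNAJC7 and the histone chaperone DNAJC9 lay lower on soft, by 0.1875 to 0.235, with adjusted p from 0.0531 to 0.0951. DNAJC5, the cysteine string protein of secretory vesicles, and DNAJC21, a factor of ribosome assembly, lay higher, by 0.13 and 0.1025. DNAJB8-AS1 also lay higher, at a level under background.

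The heat-inducible members, those that HSF1 is known to raise, moved in both directions. Of 11 measured 1 was higher (HSPB1), 3 were lower (HSPA4L, HSPD1 and HSPE1), and 7 did not pass the test. The 3 are 27.3%, against 5.93% of all genes and 10.4% of genes above background. The median difference of the 11 was -0.11. HSPA6, which is strictly heat-induced, lay under background at a mean of 5.935 on soft and 5.87 on stiff. HSF1 itself was at 8.21, 8.10, 8.09 and 8.01 on soft and at 8.08, 8.10, 8.24 and 8.21 on stiff, which overlap (difference -0.055, adjusted p = 0.697). HSF2 had no probe set of its own.

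The heat shock element, to which HSF1 binds, is built of alternating GAA and TTC units with 2 bases between them. An exact match of 3 units on either strand was found in 3 of the 65 protein-coding members with a promoter window in the RefSeq table, or 4.62%, and in 90 of all 22199 windows of protein-coding genes, or 0.405%. The 3 are shown because they are the members with the full element in the window. Of the 9 called genes with a window 0 hold it, and BAG4 and HSPA14 have none in the table. Bases of the element are in capitals with 5 flanking bases on either side, on GRCh38.p14. The element is at chr9:33025276-33025288 for DNAJA1, chr7:157336873-157336885 for DNAJB6 and chr1:161524466-161524478 for HSPA6, all on the plus strand.
DNAJA1: gggcgGAACTTTCCAGAAcgctc
DNAJB6: gccgaGAACCTTCGCGAAggtgg
HSPA6: aaaggTTCGCGAAAGTTCgcggc

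The short form of 2 units, which the full element contains, was found in 12 of the 65 windows (18.5%) and in 11.6% of all windows. HSPB1 and HSPA9 hold it, and neither HSPD1 nor HSPE1 does. In HSPB1 it begins at position -182 from the start, at chr7:76302491-76302498 on the plus strand, and reads cgagaGAAGGTTCcagat, with the units in capitals. A match is a description of these letters, and windows were limited to 300 bases.

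Probe sets of the same gene did not always move together. Of the 110 probe sets of members that were not chosen, 7 were lower and 6 higher past the threshold. Over all genes at their chosen probe set 5.93% were lower and 4.39% higher. The share over all probe sets that were not chosen was not counted. DNAJB14, a J protein of the endoplasmic reticulum membrane, was not called at its brightest probe set (0.12, adjusted p = 0.341), while another probe set above background rose by 0.6575 (adjusted p = 0.000679). Likewise DNAJC3 (P58IPK), which restrains the kinase PERK, differed by -0.065 at the chosen probe set (adjusted p = 0.636) and rose by 0.57 at another (adjusted p = 0.00774). DNAJC15 differed by 0.045 at the brightest and rose by 0.3175 at the next (adjusted p = 0.0111). Under background, probe sets of DNAJC13, DNAJC4 and HSPA1L rose by 0.2375 to 0.305, and a BAG4 probe set fell by 0.375 (adjusted p = 0.0348). A further DNAJC9 probe set fell by 0.225 (adjusted p = 0.0479).

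**Figure D4:**
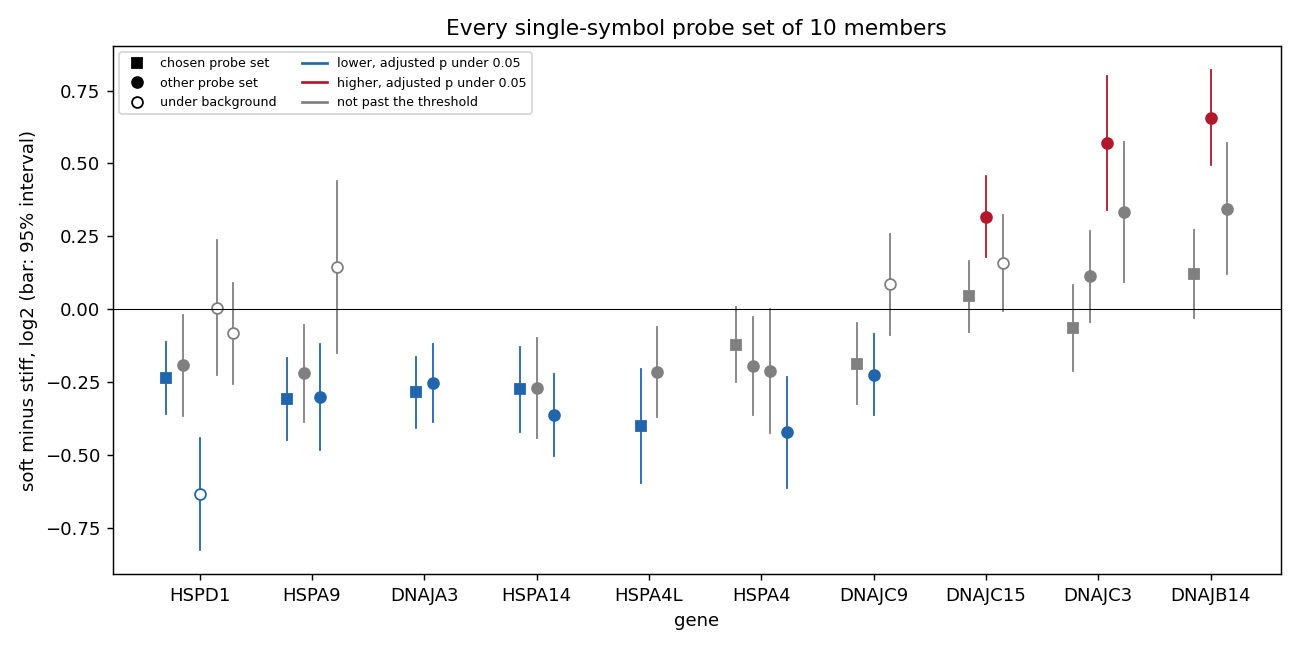
Soft minus stiff difference (vertical axis, log2, with 95% interval) of every single-symbol probe set of 10 members, ordered by level from left to right within a gene; squares are the chosen probe sets and open points lie under background. The probe sets above background of HSPD1, HSPA9, DNAJA3, HSPA14, HSPA4L and HSPA4 all have negative differences, and DNAJC15, DNAJC3 and DNAJB14 each have another probe set past the threshold on the higher side.

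Other genes of the chaperone cycle were counted in lists of their own. Of 27 measured regulators and co-chaperones outside the rule 6 were lower (22.2%), 0 were higher and 21 did not pass, with a median difference of -0.125. Over all genes 5.93% were lower. Over genes above background, where 26 of the 27 lie, 10.4% were lower and the median was -0.0275. TRAP1 and GRPEL1 are described above. CHORDC1, a heat-inducible HSP90 partner, differed by -0.42 (adjusted p = 0.0253). FKBP5 and FKBP4, immunophilins of steroid receptor complexes, differed by -0.3425 (adjusted p = 0.0140) and -0.305 (adjusted p = 0.0108), and NUDC, a client adaptor of HSP90, by -0.215 (adjusted p = 0.0451). The count fell to 3 without soft D or without stiff B. Against stiff C and D alone none of these 6 was called. Without probe sets marked for shared probes 3 genes of the list were lower and 1 was higher, and FKBP4 differed by -0.045 (adjusted p = 0.755). NUDC kept its call in 6 of 19 alternatives.

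STIP1 (HOP), which hands clients from HSP70 to HSP90, was at 9.59, 9.51, 9.75 and 9.74 on soft and at 9.91, 9.93, 9.83 and 9.82 on stiff. The arrays did not overlap, and the difference of -0.225 did not pass the test (adjusted p = 0.0763). STUB1, the ubiquitin ligase that marks clients of HSP70 and HSP90, differed by 0.02 (adjusted p = 0.885).

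Among subunits of TRiC, the cytosolic chaperonin that folds actin and tubulin, all 7 measured had arrays that lay lower on soft without overlap, as did 11.2% of all genes. Of genes above background, where all 7 lie, 19.6% lay lower in this way. CCT7 alone passed the test, at 12.39, 12.41, 12.47 and 12.43 on soft and 12.71, 12.69, 12.67 and 12.70 on stiff (difference -0.2675, SE 0.0550, adjusted p = 0.0128). The other 6 differed by -0.14 to -0.2225, with adjusted p from 0.0686 to 0.170. Prefoldin, which delivers actin and tubulin to TRiC, had 0 of 5 measured subunits past the threshold with limma, and all 5 had overlapping arrays. PFDN2 and PFDN4 had unadjusted p of 0.0386 and 0.0429. With probe sets under background removed, 7 of the 12 genes of TRiC and prefoldin were lower, and 31.9% of all genes were called in either direction. With stiff A and B or stiff C and D alone 0 of the 12 were lower.

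The count of lower members depended on the number of arrays and on the filter. It was 4 to 10 with any 1 array left out, at 4 without soft D or stiff B, 5 without stiff A or stiff D and 6 without soft B, and 1 with stiff A and B or stiff C and D as the only stiff arrays. It was 18 of 53 members when probe sets under background were removed before the fit, where 31.9% of all genes were called in either direction.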

How the data were processed

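RNA from 8 cultures was hybridised to 1 Affymetrix array each. The authors deposited log2 expression values made with RMA, per the submitters' processing notes. The sources used here give neither its version nor the probe definition or any filter. A log2 scale was read from the deposited values. RMA makes the arrays' distributions equal, so a shift of all genes together cannot be seen.

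Of 54675 probe sets 62 controls were left out. The other 54613 were fitted together in limma 3.58.1 (R 4.3.3) with lmFit and eBayes, soft against stiff, with no covariate and Benjamini-Hochberg adjustment at 0.05. GEO's platform annotation gave a single symbol to 41091 probe sets, several to 1801 and none to 11721. Probe sets with several were not used for naming. Background was set at percentile 95 of the average levels of 16 genes not normally transcribed in such cells. Arrays give no counts, so their number limits the precision. The smallest p an exact test of 4 against 4 arrays could give is 0.0286. The labels call the replicates biological but do not say how the cultures were separated, so the p-values rest on the spread among these samples, which may be technical.

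The members and all gene lists were chosen with earlier results of these data known. Named were the best known chaperone genes whatever their result, all members past the threshold, the 5 largest differences each way, members without overlap between groups, and members with another probe set past the threshold. HSF1, HSF2, STIP1, STUB1 and called genes of the other lists were named too. Some genes outside that rule are named to complete a compartment or family and were chosen after their values were seen. These are DNAJC11, DNAJC19, DNAJC28, DNAJC30, DNAJA4, DNAJB4, DNAJB5, DNAJB8, CLPB, and TRiC and prefoldin subunits. Promoter windows run from 250 bases before to 50 after the RefSeq start (GRCh38.p14). Motifs were matched exactly. The fit was tested on simulated data. Alternatives changed the normalisation, filter, variance model, array weights, probe set, replicate letters, threshold and arrays used.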

Additional observations from a re-analysis of the deposited data

Results flagged for a closer look

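In 4 groups of 4 arrays, 1 array stood apart from the others by more than Dixon's limit: HSPA9 in soft C, DNAJA3 in stiff D, DNAJC27 in soft A and DNAJB6 in soft A. HSPA9 was at 12.25 in soft C, against 12.18 in the nearest soft array. DNAJA3 was at 10.97 in stiff D, against 10.91 in the nearest stiff array. For HSPA9 the array lay toward the stiff group and for DNAJA3 away from the soft group, and both genes stayed lower without that array. DNAJC27 was at 6.86 in soft A, against 7.03, and DNAJB6 at 10.22 in soft A, against 10.42. These arrays lay away from the stiff group, and neither gene was called with or without soft A. They are 4 of 76 groups tested over 38 members (5.26%), and chance flags about 1 in 20.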

How the results depend on the processing

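The 10 lower members became 18 with probe sets under background removed and 17 (of 62) with those under the median level removed. They were 18 with a trended robust variance model, 16 at an adjusted p under 0.1 and 6 (of 63) without probe sets marked for shared probes. All genes called in either direction made up 24.7% above the median level, 15% with the trended model and 9.64% without shared probes. At an adjusted p under 0.01 the lower members were 0. With stiff A and B or stiff C and D as the only stiff arrays they were 1 each, and 4 to 10 with 1 array left out. The 1 higher member became 2 above background, 2 with the trended model, 4 when a gene's probe sets were averaged, 0 without shared probes, 0 with stiff C and D alone, 0 at 0.01, and 0 to 1 with 1 array left out. The 4 lower mitochondrial members became 2 without shared probes, 0 against stiff A and B, 1 against stiff C and D and 0 at 0.01, and 3 to 4 with 1 array left out. Without shared probes HSPE1 and DNAJA3 had no probe set left, so they were not measured there. HSPD1 was then read by a probe set under background (-0.635, adjusted p = 0.00184). The alternatives for the mitochondrial members and the counts for other genes of the pathway were added after seeing the data. The median difference of -0.025 moved to -0.065 above background, -0.07 above the median level and -0.04625 against stiff A and B. Both low-level filters leave fewer probe sets to adjust over, and the halved stiff group has fewer arrays. With adjustment over the chosen probe sets only, 11 members were lower and 1 was higher. The cause of these shifts was not tested. DNAJC2 turned to 0.0575 without shared probes (adjusted p = 0.71), where another probe set stood for it, and DNAJC3 to 0.2375 with the mean of its probe sets (adjusted p = 0.0263). DNAJC6, HSPA9, HSPE1 and DNAJA3 kept their calls in 17 of 18, 17 of 19, 16 of 18 and 16 of 18 alternatives, and HSPD1 and HSPB1 in 9 of 19 and 9 of 18. For HSPD1 these include the setting without shared probes, where the probe set under background stood for it. The labels give both substrates the letters A to D, but same-letter arrays did not deviate together (correlations 0.122, -0.118, 0.0516 and -0.0447), so the letters are not taken as pairs. With them as a replicate block 8 members were lower, 0 higher and 3 mitochondrial ones lower, and 1 of the 4 soft arrays correlated best with its own letter.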
